A study of Mus musculus with 37 samples.

Results

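The Hedgehog genes examined here were the ligands Shh and Ihh, the receptors Ptch1 and Smo, the ligand-binding inhibitor Hhip, the cytoplasmic inhibitor Sufu, and the transcription factor genes Gli1, Gli2 and Gli3. They were chosen by name, and all 9 genes were measured, by 22 of the 45101 probe sets of the array. Of these probe sets 17 passed the filter on low signal (log2 signal above 7.89, the median of all values, in at least 2 arrays), and each of the 9 genes kept at least 1. The 5 that did not pass were 1 each of Shh, Ptch1, Smo, Gli3 and Hhip. The probe set with the highest mean stands for its gene below, among 15709 genes tested.

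The material was wild-type CD-1 mouse kidney, an outbred strain, with no genetic or chemical treatment in any group, and the groups are defined by the structure taken and its embryonic day. At E15.5 there were 4 arrays of the medullary interstitium, 3 of the medullary collecting duct, 3 of the ureteric tip, 4 of the renal corpuscle (capillary loop and maturing), 2 of the early proximal tubule and 4 of the S-shaped body. The renal vesicle gave 5 arrays at E12.5. At E11.5 there were 4 arrays of the ureteric bud and 8 of the metanephric mesenchyme. Each sample pooled tissue of 5 kidneys (roughly 50 sections, per the labels), and its RNA was amplified in 2 rounds, so the p-values below measure the spread between such pools, which may be technical. The labels name laser capture for 36 of the 37 samples, yet titles of 4 mesenchyme and all 4 bud arrays name dissection or collagenase. In such bulk samples, fewer cells of a type and less RNA per cell cannot be told apart.

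Hedgehog ligands are secreted proteins that bind Patched receptors on nearby cells. Binding relieves the block that Ptch1 places on Smo, and the signal then passes Sufu and reaches the Gli proteins, of which Gli2 acts mainly as an activator and Gli3 mainly as a repressor. Ptch1, Gli1 and Hhip are themselves targets of the pathway in many mouse tissues, so their transcripts serve as a readout of the response. In the embryonic mouse kidney the ligand is known from the ureteric epithelium and the response from the surrounding stroma and smooth muscle.

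In the mouse assembly GRCm38.p6, RefSeq places Shh at chr5:28456840-28467101, Ihh at chr1:74945315-74951672, Ptch1 at chr13:63508328-63573460, Smo at chr6:29735497-29761366 and Hhip at chr8:79965850-80058060. Sufu lies at chr19:46396896-46488804, Gli1 at chr10:127329882-127341579, Gli2 at chr1:118834061-119054405 and Gli3 at chr13:15463723-15730026. The promoter windows of 2 response genes, Ptch1 and Hhip, are shown because Gli proteins act on such genes. Each window runs from 250 bases before the transcript start to 50 bases from it, on the minus strand of GRCm38.p6 as given by RefSeq, at chr13:63565686-63565985 for Ptch1 and chr8:80057959-80058258 for Hhip. Capitals mark the 50 transcribed bases. The Ptch1 window, and the part of the lower-case Hhip bases next to the start, lie inside the annotated span of the gene.
Ptch1: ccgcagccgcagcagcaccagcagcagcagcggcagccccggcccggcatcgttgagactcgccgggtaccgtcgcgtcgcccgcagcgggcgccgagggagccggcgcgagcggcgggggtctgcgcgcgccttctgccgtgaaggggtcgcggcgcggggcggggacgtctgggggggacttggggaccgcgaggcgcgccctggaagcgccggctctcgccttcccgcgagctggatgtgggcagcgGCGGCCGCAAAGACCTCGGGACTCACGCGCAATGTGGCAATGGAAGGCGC
Hhip: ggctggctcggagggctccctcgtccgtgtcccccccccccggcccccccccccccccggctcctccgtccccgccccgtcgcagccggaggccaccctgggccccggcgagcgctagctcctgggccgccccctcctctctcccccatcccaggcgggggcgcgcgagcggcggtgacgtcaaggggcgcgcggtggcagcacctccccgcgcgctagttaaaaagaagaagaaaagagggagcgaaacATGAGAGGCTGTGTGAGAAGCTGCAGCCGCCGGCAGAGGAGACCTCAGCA
The Gli consensus GACCACCCA and its reverse complement TGGGTGGTC occurred in neither window, nor in the windows of the 5 other Hedgehog genes that had one. Among all 32851 promoter windows of the same length, 83 (0.253%) held an exact match on either strand. GC content was 76.3% in the Ptch1 window and 73.7% in the Hhip window.

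Values are log2 signals after quantile normalization, given as means with SD over arrays, and a difference is the first-named component minus the second with its standard error (SE). Rose, fell and called are used of a gene where limma gave a Benjamini-Hochberg adjusted p below 0.05 over the 15709 genes and the difference was at least 1 in size. The median deposited signal of an array lay between 127 and 334, and 29 of the 37 arrays correlated best with an array of their own component. Of the marker lists, 13 ureteric epithelium markers averaged between 12.48 and 13.24 in the arrays of the collecting duct, the tip and the bud, and 11 stroma markers averaged between 13.78 and 14.26 in the medullary interstitium. Stroma markers were also present in the collecting duct (11.04 to 13.04) and ureteric tip (10.71 to 12.72), but lower in the ureteric bud (8.23 to 8.87). The mesenchyme carried nephron progenitor markers, with means of 10.80 to 11.82 against 7.37 to 8.37 in the bud, beside its stroma markers.

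Several libraries stood apart from their component. The library labelled S-shaped body replicate 3 had a podocyte marker mean of 14.5, against 11.06 to 11.86 in the other 3 arrays, a proximal tubule marker mean of 13.13, against 9.44 to 9.95, and a renal vesicle marker mean of 9.62, against 12.66 to 13.24. The library labelled renal corpuscle replicate 4 had a podocyte mean of 11.23, against 13.97 to 15.03 in the other 3, and a renal vesicle mean of 13.06, against 9.71 to 10.37. These markers go against the labels of both arrays, and neither array correlated best with its own component, so the main nephron results are also given without them. Collecting duct replicate 1 and interstitium replicates 1 and 2 were also among the 8 arrays that correlated best with another component. Because components were compared in several ways, comparisons that share a component also share its arrays.

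The ligand gene Shh was highest in the ureteric lineage at both ages. Its log2 signal was 12.09, 14.78 and 14.82 in the medullary collecting duct, 12, 11.14 and 12.03 in the ureteric tip, and 12.07, 10.38, 11.32 and 11.66 in the ureteric bud. Among 8 mesenchyme arrays the lowest, median and highest were 5.34, 7.06 and 10.02, and the renal vesicle (6.03 to 8.30), S-shaped body (5.80 to 7.37) and renal corpuscle (5.37 to 7.44) lay in the same low range. Every array of the 3 ureteric components was above every array of these 4. The 2 proximal tubule arrays, at 9.72 and 7.31, lay below the ureteric ones as well.

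Shh rose in the ureteric bud relative to the metanephric mesenchyme, at 11.36 ± 0.72 (SD, n = 4) in the bud and 7.18 ± 1.53 (n = 8) in the mesenchyme. The difference was 4.18 (SE 0.77, limma adjusted p = 0.000207), and the ranges of the bud and the mesenchyme did not overlap. It was the 1 Hedgehog gene of 9 that changed there, where 8.14% of all genes did. When the dates in the titles were fitted as terms the difference was 4.15 with an adjusted p of 1; only 1 bud and 1 mesenchyme array share a date. Shh in the mesenchyme lay near the median of all values, so background and the offset limit the size of the difference. In the log2 ratio of 5′ to 3′ probe sets, a sign of RNA quality, bud and mesenchyme arrays overlapped for Actb (bud -4.02 to -3.45, mesenchyme -5.16 to -3.47). They did not overlap for Gapdh, at -3.61 to -2.71 in the bud and -6.12 to -3.83 in the mesenchyme. Nor did they overlap in median deposited signal, 127 to 133 in the bud and 140 to 197 in the mesenchyme; the part of these in the Shh value and in the other differences between bud and mesenchyme was not tested. The 2 mesenchyme arrays with the highest Shh, replicates 1 and 2, also had the highest ureteric epithelium marker means of the group, 10.56 and 10.67. These means were 9.22 and 9.74 in replicates 3 and 4. They were 8.09 to 8.29 in replicates 5 to 8, the mesenchyme arrays titled dissection or collagenase. The part of these markers and of the titled method in the Shh values was not tested.

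In the medullary interstitium Shh was 11.95, 8.53, 6.31 and 7.32. The group averaged 8.53 ± 2.45 (SD, n = 4), against 13.90 ± 1.57 (n = 3) in the neighbouring collecting duct. Shh was lower by 5.37 in the interstitium (difference -5.37, SE 0.96, limma adjusted p = 0.000662), with no overlap between the components. It was again the only Hedgehog gene called, 1 of 9, while 4.48% of all genes were. Interstitium replicate 1, the array with Shh at 11.95, also had the highest ureteric marker mean of its group, 12.05, against 10.70, 9.56 and 9.49 in the other arrays. Without that array the difference passed the test as well, and over 20 alternative settings it stayed between -7.41 and -4.63 and was called in each.

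Within the ureteric lineage Shh was higher in the collecting duct than elsewhere, but not past the threshold. The collecting duct exceeded the ureteric tip by 2.17 (SE 1.03, limma adjusted p = 0.805) and the ureteric bud by 2.54 (SE 0.96, adjusted p = 0.0858), and it overlapped neither. Collecting duct replicate 1 had the lowest Shh of its group and the highest stroma marker mean, 13.04, against 11.04 and 12.28. Without this array the difference from the bud was 3.44 with an adjusted p of 0.0402. Over 20 alternative settings the Shh difference from the bud ran between 1.32, with median scaling, and 6.84, with title dates fitted, and 4 of the 20 passed. Collecting duct and bud arrays share no title date, so the date fit links them only through other components.

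**Figure D1:**
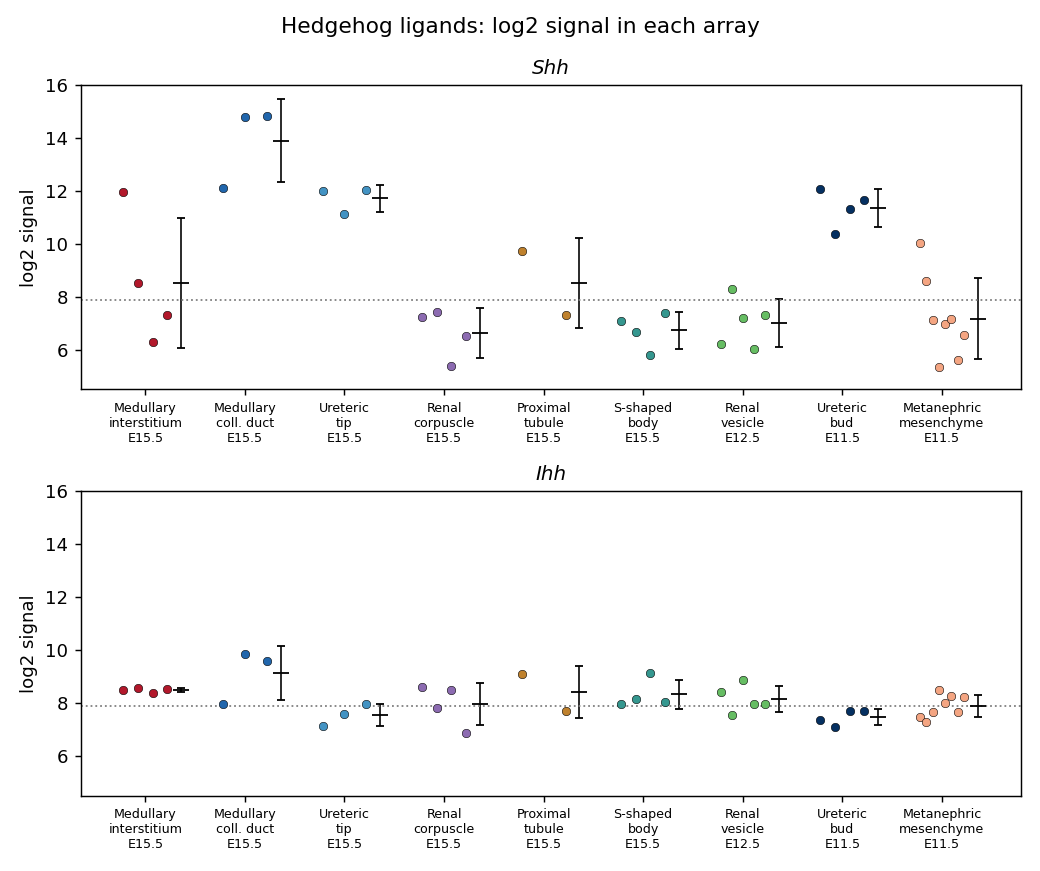
Log2 signal of the ligand genes Shh (top) and Ihh (bottom) in each of the 37 arrays, by component and embryonic day. Points are arrays, the bar beside them is the mean with SD, and the dotted line is the median of all values, 7.89. Shh stands high in the collecting duct, tip and bud, with 1 high array in the interstitium, whereas the highest Ihh values, 9.87 and 9.58, are collecting duct arrays.

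Ihh, the second ligand gene, had a narrower range. Its signal was 7.95, 9.87 and 9.58 in the collecting duct, 7.14, 7.57 and 7.95 in the ureteric tip and 7.37, 7.09, 7.71 and 7.70 in the ureteric bud. The collecting duct arrays were all above those of the bud, and 1 of them equalled the highest tip array. Ihh rose in the collecting duct relative to the bud by 1.67 (SE 0.47, limma adjusted p = 0.0173), 1 of 9 Hedgehog genes where 10.1% of all genes were called. The call was lost without collecting duct replicate 2 (1.30, adjusted p = 0.141), collecting duct replicate 3 (1.45, 0.0973) or bud replicate 2 (1.54, 0.0559), and when title dates were fitted (3.25, 0.264). Against the tip the difference was 1.58 (SE 0.50, adjusted p = 0.28), where 0.356% of all genes and 0 of the 9 Hedgehog genes were called although Shh and Ihh had unadjusted p-values under 0.05 (0.0422 and 0.00324). Without collecting duct replicate 1 it was 2.17 with an adjusted p of 0.0436. The duct and bud arrays also differed without overlap in RNA quality ratios and brightness. The log2 ratio of 5′ to 3′ probe sets was -2.75 to -1.35 in the duct and -4.02 to -3.45 in the bud for Actb, and -4.86 to -4.43 in the duct and -3.61 to -2.71 in the bud for Gapdh. The median deposited signal was 287 to 334 in the duct and 127 to 133 in the bud. Of 11 stroma markers 10 were higher in the duct than in the bud (list median 3.47). The part of RNA quality, brightness and these markers in the Ihh value and in the other differences between duct and bud was not tested. All bud arrays and no collecting duct array are titled dissection or collagenase, so age and titled method cannot be told apart in these differences. Outside the duct, Ihh component means ran between 7.47 and 8.49, close to the median of all values, and each neighbour in that order overlapped the next.

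Ptch1, the receptor that binds the ligands, was highest on average in the medullary interstitium. Its signal there was 12.68, 14.44, 14.53 and 14.19, against 13.31, 12.57 and 12.67 in the collecting duct and 13.57, 12.95 and 12.74 in the ureteric tip. The other E15.5 components ranged from 12.15 to 13.65 in the corpuscle, from 11.93 to 13.07 in the S-shaped body, and were 12.38 and 11.35 in the proximal tubule. Interstitium replicates 2 to 4 were above every other E15.5 array, and replicate 1 lay within their range.

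Ptch1 rose in the interstitium relative to the mean of the other 5 E15.5 components, with 13.96 ± 0.87 (SD, n = 4) in the interstitium and 12.63 over those components. The difference was 1.33 (SE 0.34, limma adjusted p = 0.0135), and 2 of the 9 Hedgehog genes were called, against 6.12% of all genes. The call was lost without interstitium replicate 2 (1.17, adjusted p = 0.0698), 3 (1.14, 0.108) or 4 (1.25, 0.0712), with another Ptch1 probe set (1.06, 0.389), and when title dates were fitted (0.55, 0.509). It was also lost with the title number as a replicate block, whose value is given in the closing section. Within title dates shared by 1 interstitium array and other arrays, the difference was 0.88, 0.62 and 0.24, the last for replicate 1. Against the collecting duct alone it was 1.11 (SE 0.47, adjusted p = 0.211) with overlapping arrays, and 1.54 (adjusted p = 0.043) without interstitium replicate 1. The interstitium also carried higher smooth muscle markers, with means of 9.30 to 10.17 against 7.40 to 7.63 in the collecting duct, and higher macrophage markers, with means of 9.86 to 11.47 against 7.74 to 8.47. Of 6 macrophage markers 3 were higher against the collecting duct (list median 2.99) and 3 against the other 5 components (list median 2.16). The median deposited signal was 220 to 271 in the interstitium and 287 to 334 in the collecting duct, without overlap. The part of these markers and of brightness in the Ptch1 and Gli1 values was not tested.

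At E11.5 Ptch1 averaged 12.30 ± 0.55 (SD, n = 4) in the ureteric bud and 13.13 ± 0.72 (n = 8) in the mesenchyme. The difference of -0.84 (SE 0.37) had an adjusted p of 0.22 in limma, and the arrays overlapped. With array weights it was -1.08 and passed (adjusted p = 0.000309). The second Ptch1 probe set that passed the filter lay near the median of all values in most arrays, with component means between 6.31 and 8.38. Its mean was 8.38 in the interstitium and nearly as high, 8.24, in the ureteric tip. The interstitium differed from the collecting duct by 0.42 with this probe set (limma adjusted p = 0.907 in a fit of all probe sets).

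Gli1, the Gli gene induced by the pathway, was also highest on average in the medullary interstitium. The signal was 10.72, 9.32, 10.43 and 9.69 in the medullary interstitium, against 9.47, 7.41 and 8.08 in the collecting duct and 8.59, 8 and 9.66 in the ureteric tip. At E11.5 it was 8.56, 7.07, 7.98 and 8.07 in the bud, while 8 mesenchyme arrays had a lowest value of 7.96, a median of 9.67 and a highest of 10.63. Interstitium and collecting duct arrays overlapped, as did those of bud and mesenchyme. At E15.5 Gli1 also ran from 6.24 to 10.09 in the corpuscle, which overlapped the interstitium. It was 9.13 and 9.23 in the proximal tubule, and 7.08 to 8.15 in the S-shaped body.

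Gli1 rose in the interstitium relative to the other 5 E15.5 components, with 10.04 ± 0.65 (SD, n = 4) in the interstitium and a mean of 8.44 over those components (difference 1.60, SE 0.48, limma adjusted p = 0.0349). The call was lost without interstitium replicate 1 (1.38, adjusted p = 0.114), 3 (1.47, 0.15) or 4 (1.72, 0.0753), collecting duct replicate 2 (1.51, 0.0533) or ureteric tip replicate 2 (1.53, 0.0538), with array weights (1.61, 0.0654), median scaling (1.51, 0.0653) or only the arrays compared (1.60, 0.111), when title dates were fitted (1.92, 0.183), and without interstitium replicate 1 and collecting duct replicate 1 together (1.49, 0.0763). Within title dates shared by 1 interstitium array and other arrays the difference was 1.89, 1.09 and 2.11. Against the collecting duct alone it was 1.72 (SE 0.65, adjusted p = 0.146). The bud lay 1.48 below the mesenchyme (difference -1.48, SE 0.52, adjusted p = 0.0784), which passed without mesenchyme replicate 2 (-1.68, 0.0342). The highest Gli1 and Ptch1 signals in the collecting duct were both in replicate 1, the array with the most stroma marker signal; the part of the markers in these values was not tested.

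**Figure D2:**
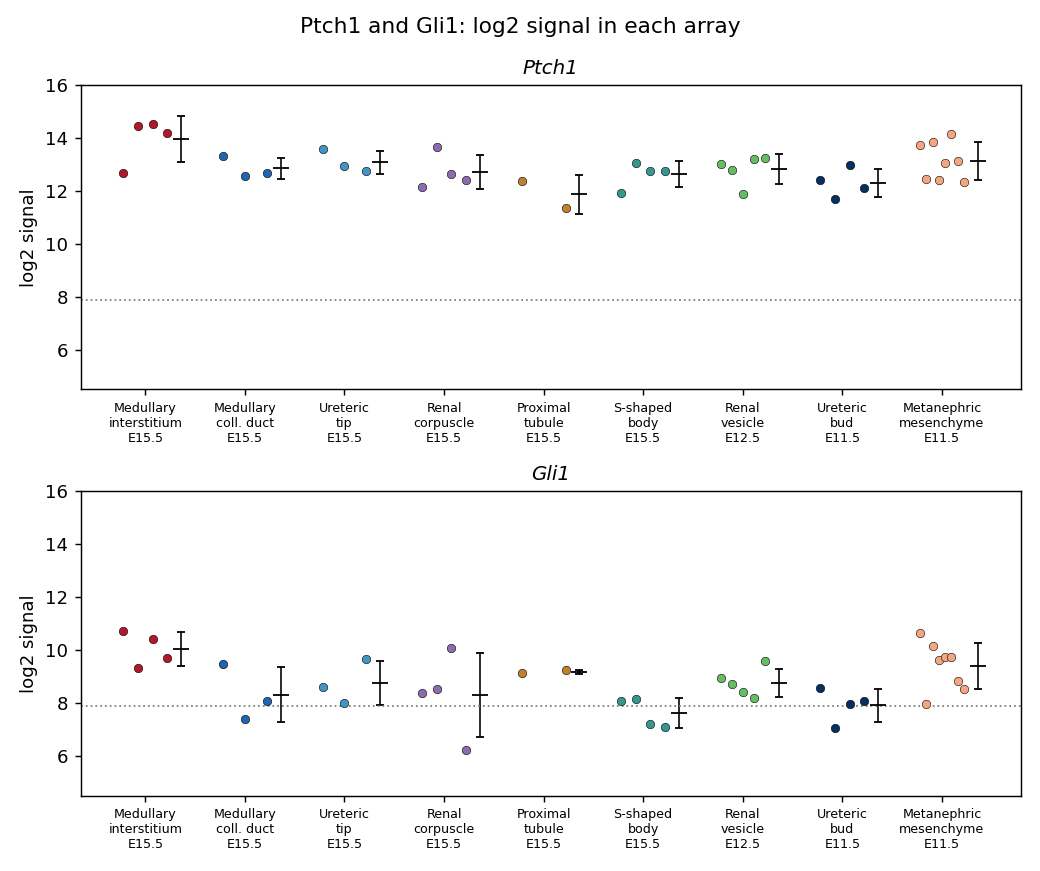
Log2 signal of the response genes Ptch1 (top) and Gli1 (bottom) in each array, by component and embryonic day, with means and SD beside the points and the median of all values dotted. Of the 4 interstitium arrays, 3 have Ptch1 at 14.19 or more, and all have Gli1 at 9.32 or more. Gli1 also reaches 10.09 in the corpuscle, 9.66 in the ureteric tip and 9.47 in the collecting duct.

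The difference between each non-ureteric component and the ureteric component beside it was set side by side at the 2 ages. The components are not alike: nephron progenitor marker means were 7.01 to 11.18 in the interstitium and 10.80 to 11.82 in the mesenchyme, and 4 of 7 such markers were lower in the interstitium (list median -3.27). All bud arrays and part of the mesenchyme arrays are titled dissection or collagenase, and no E15.5 array is. Age, cell makeup and titled method therefore cannot be told apart. The interstitium and the mesenchyme also differed without overlap in the Actb ratio of 5′ to 3′ probe sets, -3.07 to -1.72 in the interstitium and -5.16 to -3.47 in the mesenchyme, while their Gapdh ratios overlapped. Nor did they overlap in median deposited signal, 220 to 271 in the interstitium and 140 to 197 in the mesenchyme. The part of these in the differences between interstitium and mesenchyme was not tested. For Shh the interstitium lay 5.37 below the collecting duct at E15.5, and the mesenchyme lay 4.18 below the bud at E11.5. For Ptch1 the corresponding gaps were 1.11 and 0.84 upward, and for Gli1 they were 1.72 and 1.48. Shh lay near the median of all values in the mesenchyme (median 7.06) and in 3 of the 4 interstitium arrays (6.31 to 8.53), so background sets the size of both Shh gaps, and they are not compared. The difference between the 2 gaps was 0.27 for Ptch1 (SE 0.60, limma adjusted p = 0.95) and 0.24 for Gli1 (SE 0.83, 0.967). No Hedgehog gene of 9 passed that test, which 1.39% of all genes passed and which background limits for Shh, Ihh and Hhip, and 1 of them, Smo, had an unadjusted p below 0.05 (0.0161). Between these 2 components themselves, the interstitium exceeded the mesenchyme by 0.83 for Ptch1 (SE 0.37, adjusted p = 0.141) and 0.64 for Gli1 (SE 0.52, adjusted p = 0.455). None of the 9 was called in that comparison, where 11.4% of all genes were, and Ptch1 alone had an unadjusted p under 0.05 (0.0341). Without interstitium replicate 1, Ptch1 was called (1.25, adjusted p = 0.028).

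**Figure D3:**
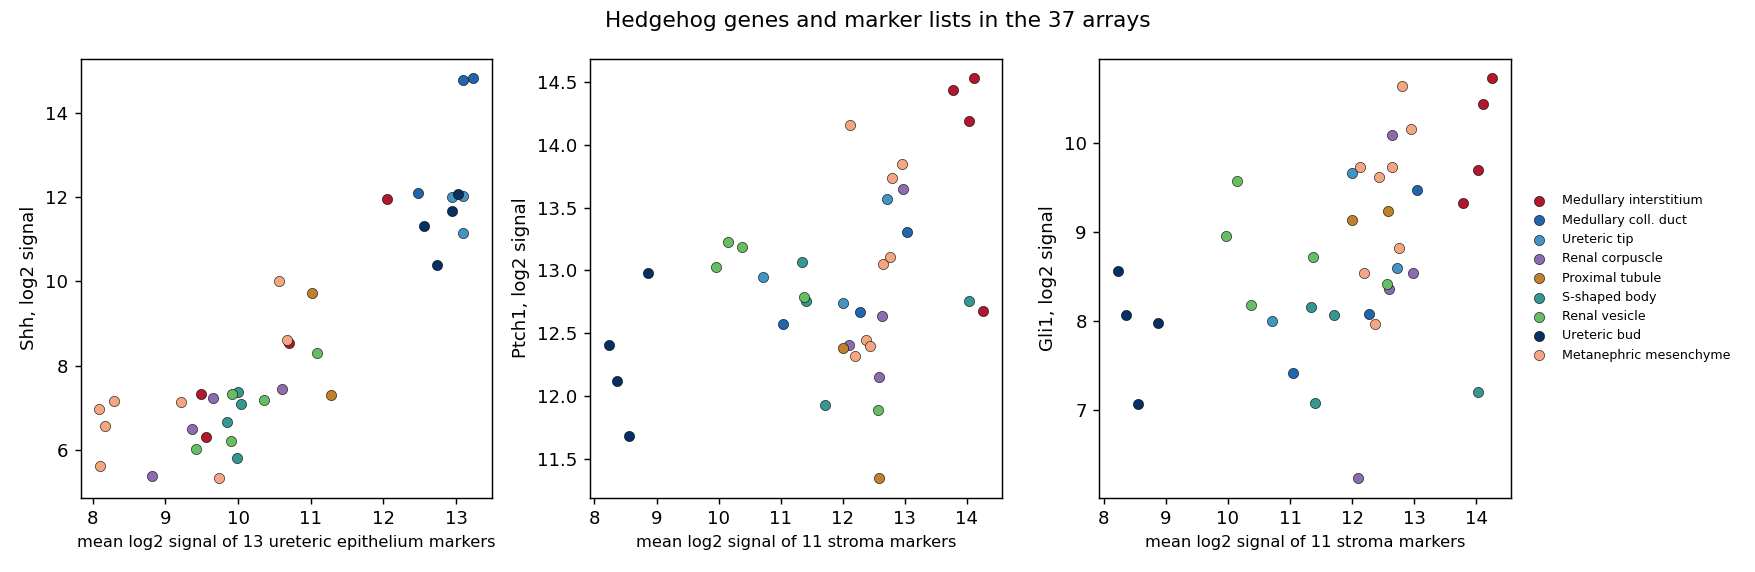
Left, Shh log2 signal against the mean of 13 ureteric epithelium markers; middle and right, Ptch1 and Gli1 against the mean of 11 stroma markers, with 1 point for each of the 37 arrays, coloured by component. The interstitium array with Shh at 11.95 has a ureteric marker mean of 12.05, and the interstitium arrays lie at 13.78 to 14.26 in the stroma panels, where 1 S-shaped body array, at 14.03, lies too.

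Hhip, a membrane protein that binds and sequesters Hedgehog ligands, was near background: its 3 probe sets that passed the filter were above the median of all values in 2, 2 and 5 of 37 arrays. The signal was 6.81, 7.67, 5.74 and 7.43 in the interstitium and 5.30, 5.48 and 5.53 in the collecting duct, 2 components that did not overlap. The difference was 1.47 (SE 0.58, limma adjusted p = 0.173). The renal vesicle lay 1.12 below the mesenchyme (difference -1.12, SE 0.44, adjusted p = 0.0791), which passed without mesenchyme replicate 2 (-1.35, 0.0281) or 4 (-1.37, 0.0221). The Hhip probe set used here passed the filter only through 2 mesenchyme arrays. Its test against the mesenchyme is therefore not independent of the filter, and no fall is read from it. The offset added before the logarithm understates differences at such low signal.

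Smo, the transducing receptor, varied little, with component means between 13.48 in the collecting duct and 14.50 in the renal vesicle. It was 14.24, 14.07, 14.17 and 13.91 in the interstitium, 13.46, 13.38 and 13.59 in the collecting duct and 14.60, 14.48, 13.71 and 14.46 in the ureteric bud. The collecting duct was below all arrays of the other 2. It lay 0.83 below the bud (difference -0.83, SE 0.31, limma adjusted p = 0.0787), a size under the threshold of 1; without bud replicate 3 it passed (-1.04, 0.0418). Scaling by the median alone gave -1.98 (adjusted p = 4.38e-05), but also moved the median difference of all genes in this comparison to -0.85, against -0.19 after quantile normalization.

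Gli2 and Gli3 were high in mesenchyme and ureteric bud, and Gli2 fell in the first nephron epithelium. Gli2 averaged 12.54 in the bud and 12.96 in the mesenchyme (difference -0.42, limma adjusted p = 0.915). Gli3 averaged 12.36 in the bud and 13.11 in the mesenchyme (-0.75, adjusted p = 0.782). In the renal vesicle the Gli2 signal was 9.56, 11.30, 7.96, 10.45 and 8.72, while in 8 mesenchyme arrays the lowest, median and highest were 12.45, 13.04 and 13.31. No vesicle array reached the mesenchyme. The vesicle averaged 9.60 ± 1.33 (SD, n = 5) and the mesenchyme 12.96 ± 0.30 (n = 8), a difference of -3.36 (SE 0.68, limma adjusted p = 0.000839). The second Gli2 probe set had component means of 8.48 in the vesicle and 10.74 in the mesenchyme. With mesenchyme arrays titled as laser capture alone, the difference was -3.31 with an adjusted p of 0.0519.

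Sufu, which holds Gli proteins in the cytoplasm, was the second Hedgehog gene of 9 to fall in the renal vesicle, where 11.8% of all genes changed. It was 11.15, 11.53, 10.74, 11.61 and 11.32 in the vesicle, against a lowest value of 11.88, a median of 12.47 and a highest of 12.83 in the mesenchyme. The components did not overlap, and the difference was -1.16 (SE 0.26, limma adjusted p = 0.00256). It was -1.08 (adjusted p = 0.0899) with only the mesenchyme arrays titled as laser capture, and the 2 other Sufu probe sets, both much dimmer (means 6.92 and 7.71 against 12.01), gave -0.43 and -0.03 with adjusted p-values of 0.557 and 0.971 in a fit of all probe sets. The vesicle also had lower stroma marker means, 9.96 to 12.57, than the mesenchyme, 12.12 to 12.95; their part in the Gli2 and Sufu values was not tested.

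Gli3 was not called in the vesicle. It was 12.49, 12.69, 11.44, 11.99 and 12.69 there, against a lowest value of 12.14, a median of 13.30 and a highest of 14.03 in the mesenchyme. The components overlapped, and the difference was -0.85 (SE 0.69, limma adjusted p = 0.451), and -0.20 with the second Gli3 probe set. Later nephron components were uneven: Gli3 was 5.81 and 10.19 in the proximal tubule, 10.24, 12.18, 7.61 and 8.12 in the renal corpuscle, and 10.70, 12.29, 7.03 and 12.03 in the S-shaped body, where the 7.03 is replicate 3, the array with podocyte and proximal tubule markers. Gli2 spread as widely in the corpuscle, at 9.48, 11.89, 5.70 and 10.34, and in the proximal tubule, at 6.44 and 11.97, but lay between 10.51 and 11.07 in the S-shaped body. The second Gli2 probe set lay at 5.45 and 10.17 in the proximal tubule, 7.34 to 8.99 in the corpuscle and 5.78 to 9.05 in the S-shaped body.

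**Figure D4:**
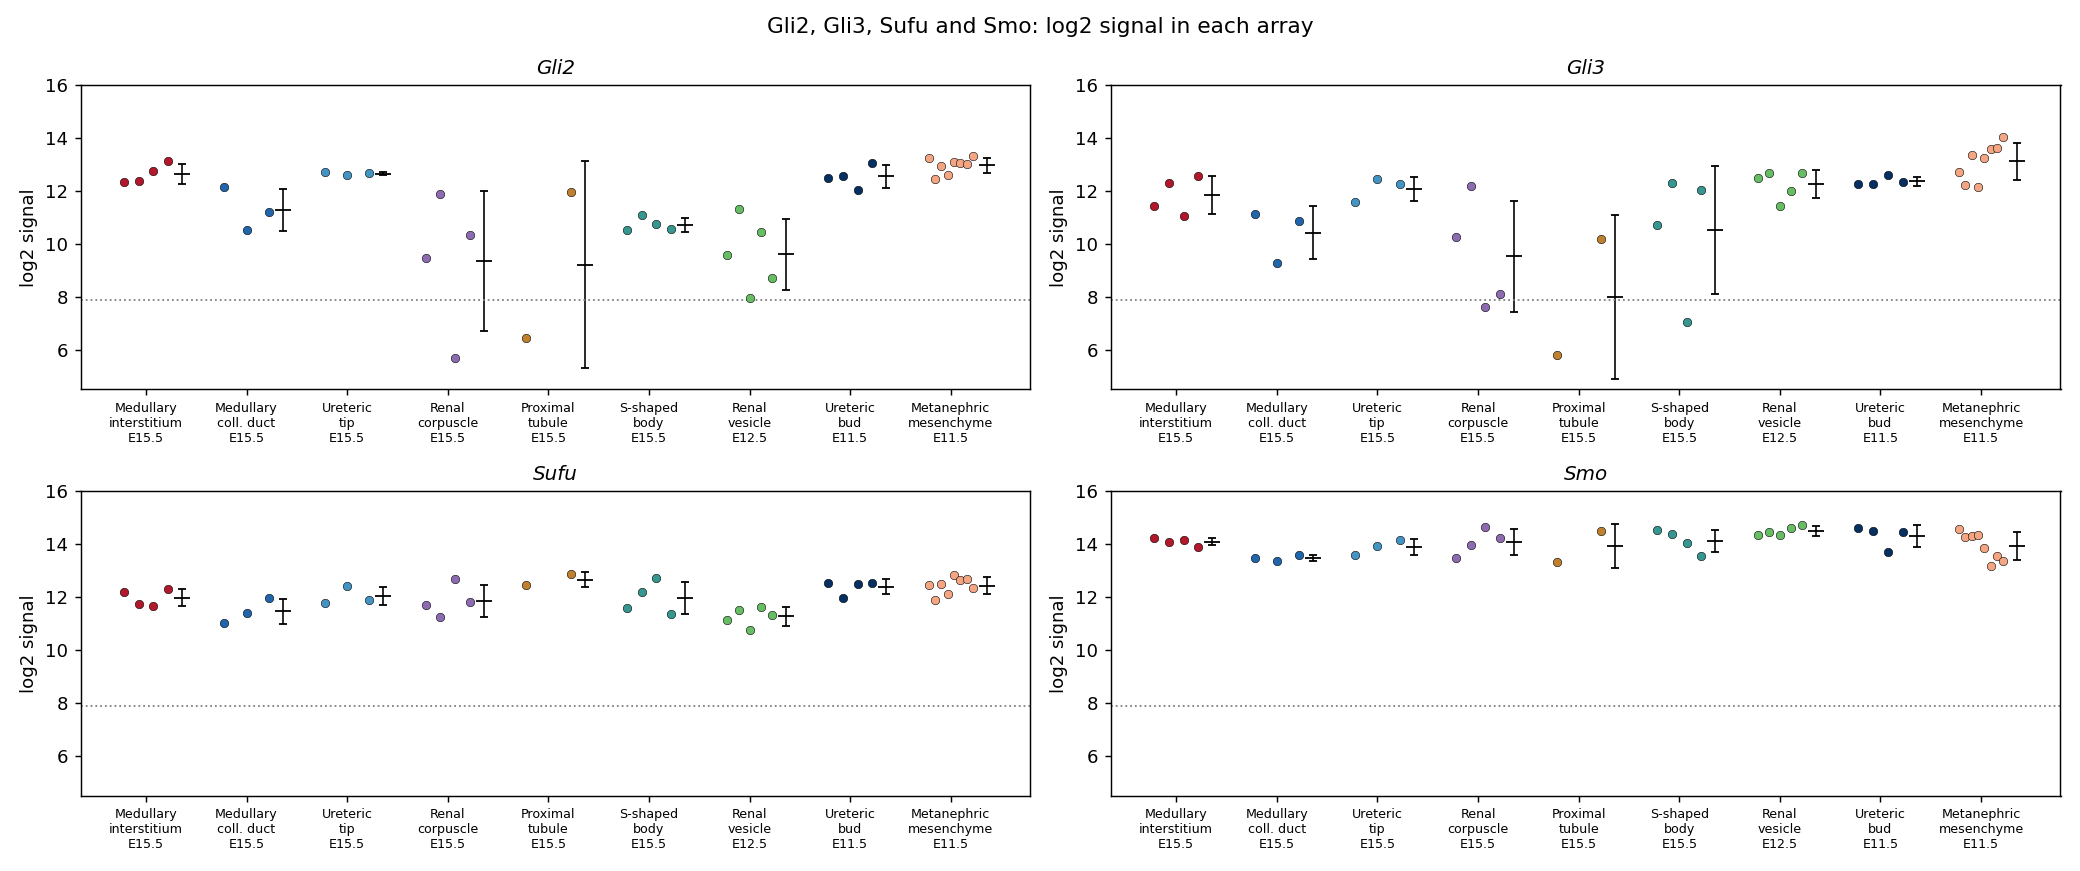
Log2 signal of Gli2, Gli3, Sufu and Smo in each array, by component and embryonic day, with means and SD beside the points and the median of all values dotted. Gli2 is lower in the vesicle than in the mesenchyme, Gli2 and Gli3 by these probe sets spread over several log2 units in the corpuscle and proximal tubule, and Smo varies least of the 4 between component means.

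In the comparisons along the nephron, 0 of the 9 Hedgehog genes were called by their representative probe sets. The S-shaped body had lower Gli1 than the vesicle without overlap, at 7.62 ± 0.56 (SD, n = 4) in the S-shaped body and 8.77 ± 0.54 (n = 5) in the vesicle (difference -1.14, SE 0.57, limma adjusted p = 0.269), where 5.03% of all genes were called. The renal corpuscle differed from the S-shaped body by at most 1.37 in size for any of the 9, with every unadjusted p above 0.05, where 0.579% of all genes were called. The proximal tubule had Gli3 2.51 below the S-shaped body (difference -2.51, SE 1.05, adjusted p = 0.125) and Gli1 1.55 above it (SE 0.74, adjusted p = 0.184), where 9.92% of all genes were called. Without S-shaped body replicate 3, which stands apart by its markers, Gli3 passed (-3.67, adjusted p = 0.00713), and with corpuscle replicate 4 left out too the value was the same (adjusted p = 0.00527). Without both arrays Gli1 was -1 in the S-shaped body relative to the vesicle (adjusted p = 0.397) and Gli3 was -0.58 (0.771), against a Gli3 value of -1.75 (SE 0.81, adjusted p = 0.226) with them, and 2.58% of all genes were called in that comparison. Without both, 0 of the 9 genes were called in the corpuscle relative to the S-shaped body either, where 4.07% of all genes were. Without proximal tubule replicate 2 Gli3 also passed (-4.70, adjusted p = 0.0104), but that leaves 1 proximal tubule array, assumed to vary like the other components. Without proximal tubule replicate 1 the Gli3 difference was -0.32 (adjusted p = 0.919), so over single arrays left out it ran between -4.70 and -0.32. Gli1 was 1.41 (adjusted p = 0.187) without the libraries labelled S-shaped body 3 and corpuscle 4, where 1956 of the 15709 genes were called. The Actb ratio was -3.43 and -4.59 in the proximal tubule and -2.97 to -1.85 in the S-shaped body, and -4.44 to -3.87 in the vesicle, without overlap of the S-shaped body with either. The Gapdh ratio of the S-shaped body, -5.81 to -4.23, overlapped both. The part of these ratios was not tested. The second Gli3 probe set gave -1.52 (adjusted p = 0.336). A dim second Hhip probe set was higher in the proximal tubule, at 9.61 and 6.49 against 5.21 to 6.37 in the S-shaped body (2.46, adjusted p = 0.0261 in a fit of all probe sets), with 1 array well above the rest. That array was 1 of only 2 through which this probe set passed the filter, so the call is not independent of the filter. In the vesicle comparison Sufu and Gli3 had unadjusted p-values under 0.05 (0.0312 and 0.0391), as did Gli3 and Gli1 in the proximal tubule (0.0224 and 0.0426).

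At E15.5 the interstitium also exceeded the mean of the other 5 components in Gli2 by 2.00 (SE 0.67, limma adjusted p = 0.062) and in Gli3 by 1.72 (SE 0.68, adjusted p = 0.128). The ureteric tip was not below the interstitium in either gene. Gli2 averaged 12.65 in both, and Gli3 averaged 12.09 in the tip and 11.84 in the interstitium. Both genes spread widely in the corpuscle and proximal tubule. Gli2 passed without corpuscle replicate 2 (2.17, adjusted p = 0.0247), corpuscle replicate 3 (1.76, 0.0394) or proximal tubule replicate 2 (2.56, 0.00423), and Gli3 without proximal tubule replicate 2 (2.16, 0.0318); both fits without that array leave 1 proximal tubule array. The second Gli3 probe set gave 0.43 in place of 1.72. Compared with the ureteric bud, the collecting duct had Gli3 1.94 lower (difference -1.94, SE 0.93, adjusted p = 0.189) and Sufu 0.93 lower (difference -0.93, SE 0.35, adjusted p = 0.0818), without overlap in either gene. Relative to the tip, Gli2 lay 1.37 lower (difference -1.37, SE 0.97, adjusted p = 1) and Gli3 1.67 lower (difference -1.67, SE 0.99, adjusted p = 1) in the collecting duct, also without overlap. For Gli3 the second probe set gave 0.25 against the bud and -0.11 against the tip, so the Gli3 differences rest on 1 probe set.

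**Figure D5:**
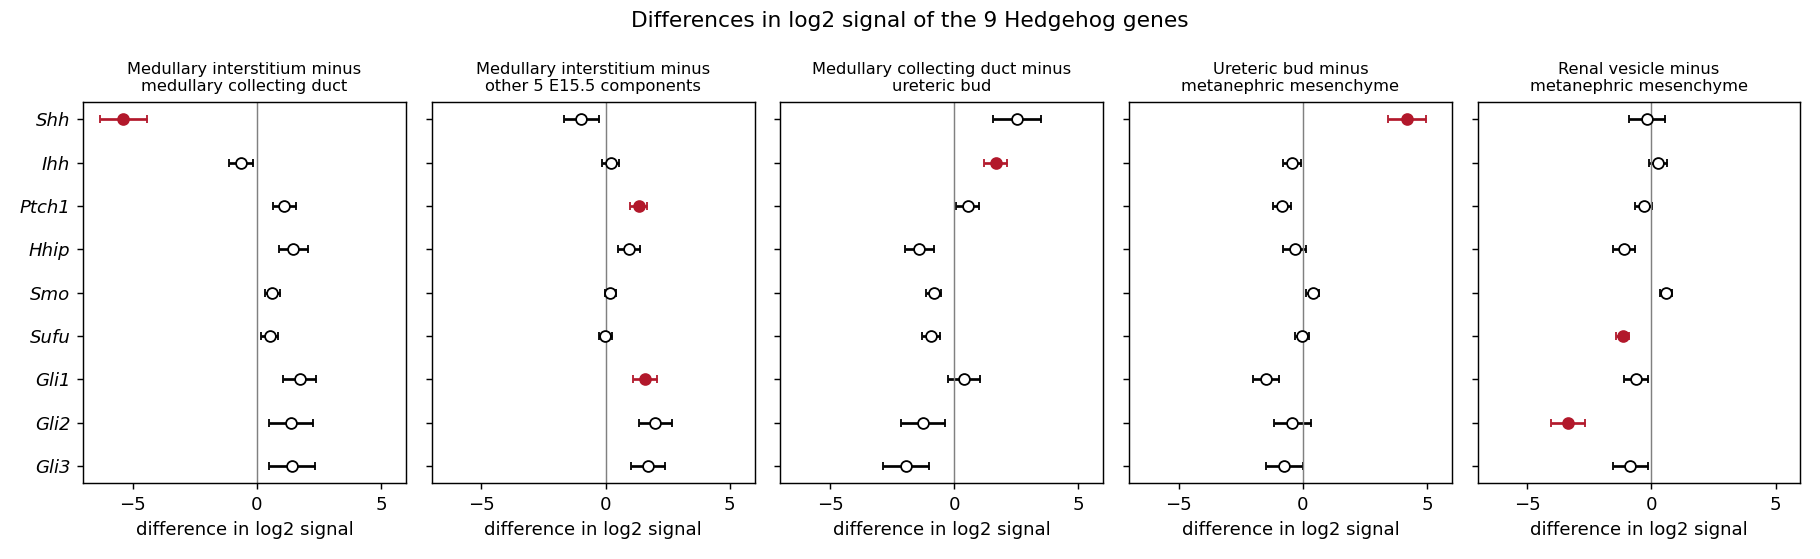
Difference in log2 signal of the 9 Hedgehog genes in 5 comparisons, with the SE of the limma fit as bars. Filled red points passed the test: Shh at -5.37 and 4.18, Ihh at 1.67, Ptch1 at 1.33, Gli1 at 1.60, Sufu at -1.16 and Gli2 at -3.36.

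Other genes of the pathway were grouped as ligand handling (7 of 7 listed genes measured), co-receptors (3 of 4), transduction (15 of 17) and targets known from other tissues (9 of 11). Of the targets, Sall1 is also on the nephron progenitor marker list and Ccnd1 on the renal vesicle marker list. In the ureteric bud relative to the mesenchyme, 4 of 9 target genes fell and 1 rose, where 8.14% of all genes changed, with a list median of -1.15 against 0.02 over all genes. Stroma markers (9 of 11 lower, list median -3.70) and nephron progenitor markers (5 of 7 lower, list median -4.84, a list that holds Sall1) moved with these genes, and their part was not tested. Sall1, a nephron progenitor transcription factor, averaged 7.36 in the bud and 12.20 in the mesenchyme (difference -4.84, SE 0.54, limma adjusted p = 5.72e-08), and Bmp4, a secreted growth factor, 8.58 in the bud (difference from the mesenchyme -2.92, SE 0.45, adjusted p = 1.4e-05). Ccnd1, cyclin D1, rose (1.73, adjusted p = 0.00203). Bcl2, an inhibitor of apoptosis, and Foxf1, a stromal forkhead factor, also fell (-1.80, adjusted p = 0.0307, and -1.15, adjusted p = 0.0407), but lost the call without mesenchyme replicates 4 or 6 or any bud array for Bcl2 (-1.92 to -1.67), and without mesenchyme replicates 1, 3 or 6 or bud replicates 1, 2 or 4 for Foxf1 (-1.19 to -0.99). Gas1, a co-receptor that promotes ligand binding, fell as 1 of 3 co-receptors, to 12.03 in the bud against 14.56 in the mesenchyme (difference -2.53, SE 0.34, adjusted p = 2.02e-06). With title dates fitted none of these 6 genes was called; Sall1 was -4.29 (adjusted p = 0.702), Bmp4 -2.87 (1) and Gas1 -2.36 (0.585). None of the ligand handling or transduction genes was called; Dhh, the third Hedgehog ligand, had -1.38 (adjusted p = 0.175).

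In the renal vesicle relative to the mesenchyme, 3 of 15 transduction genes changed, where 11.8% of all genes did. Markers also lower in the vesicle were 6 of 11 of stroma (list median -1.85), 3 of 6 of smooth muscle (-1.30), 3 of 7 of endothelium (-1.5), 2 of 6 of macrophages (-1.19) and 2 of 7 of nephron progenitors (-1.27), while 7 of 7 vesicle markers were higher (3.30). Their part in the values that follow was not tested. Btrc, part of the ubiquitin ligase that processes Gli proteins, fell (-2.20, SE 0.47, limma adjusted p = 0.00169; -1.09, 0.322 with another probe set), as did the ciliary motor gene Kif3a (-1.5, SE 0.39, adjusted p = 0.00825; -1.24, 0.248 with another probe set). Tulp3, a ciliary trafficking gene, was called at the limit (1.00, adjusted p = 0.0488), and the call was lost without vesicle replicates 2 to 5 or mesenchyme replicates 1 to 7 (0.86 to 1.06). Scube3, a secreted protein of the family that releases ligand from cells, rose as 1 of 7 (1.57, SE 0.36, adjusted p = 0.00264). Of 9 targets 2 rose: Ccnd1 (2.43, SE 0.36, adjusted p = 2.24e-05) and Bmp4 (1.22, adjusted p = 0.0438). Ccnd1 is also 1 of the 7 vesicle markers counted above. Bmp4 was not called without vesicle replicates 1, 2, 4 or 5 or mesenchyme replicates 2, 4, 5, 6 or 7 (1.09 to 1.30). Gas1 fell (-1.06, adjusted p = 0.0226), but not without vesicle replicate 1 (-0.93) or mesenchyme replicate 7 (-0.98). Gsk3b, a kinase acting on Gli proteins, had -1.16 (adjusted p = 0.0687).

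In the medullary interstitium, Myocd, the myocardin gene that drives smooth muscle genes, was the target with the largest difference. It averaged 9.28 in the interstitium, against 6.48 in the mesenchyme (difference 2.81, SE 0.47, limma adjusted p = 0.000108), 6.90 in the collecting duct (2.38, SE 0.59, adjusted p = 0.0128) and 6.89 over the other 5 E15.5 components (2.40, SE 0.43, adjusted p = 0.000447). The collecting duct call was lost without collecting duct replicate 2 (1.90, 0.182) or 3 (2.30, 0.0626) or interstitium replicate 4 (2.07, 0.0649). These 3 comparisons share the interstitium arrays. Smooth muscle marker means were 9.30 to 10.17 in the interstitium and 7.50 to 10.08 in the mesenchyme; their part in the Myocd values was not tested. Ccnd2, cyclin D2, rose by 1.27 against both the mesenchyme (adjusted p = 0.0403) and the other 5 components (adjusted p = 0.0403), and Ccnd1 by 1.13 against the mesenchyme (adjusted p = 0.0453). The Ccnd2 calls were lost without interstitium replicates 1, 3 or 4 (1.13 to 1.29) in both comparisons, without mesenchyme replicates 3, 5, 6 or 7 in the first (1.16 to 1.25), and without collecting duct replicate 2, proximal tubule replicate 1 or ureteric tip replicates 1 or 3 in the second (0.93 to 1.25). The Ccnd1 call was lost without any interstitium array or mesenchyme replicates 3 to 8 (1.05 to 1.24).

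Of the 3 Scube genes, Scube3 fell and Scube2 rose in interstitium comparisons. Scube3 averaged 10.50 in the interstitium, against 13.94 in the collecting duct (difference -3.44, SE 0.48, limma adjusted p = 1.68e-05), 12.37 in the mesenchyme (-1.87, SE 0.38, adjusted p = 0.000963) and 12.37 over the other 5 components (-1.86, SE 0.35, adjusted p = 0.000678). Scube2 averaged 8.86 in the interstitium, against 5.96 in the collecting duct (2.91, SE 0.84, adjusted p = 0.0372) and 6.41 in the mesenchyme (2.46, SE 0.68, adjusted p = 0.0129). Against the other 5 components Scube2 was not called (1.91, adjusted p = 0.0556) unless the libraries labelled S-shaped body 3 and corpuscle 4 were left out (2.08, 0.00395), and Scube1 was called in none of the 3 comparisons (0.49 to 0.93). The Scube2 calls were lost without interstitium replicates 1 or 4 in both comparisons (2.07 to 2.64), and in the first also without interstitium replicate 3 or any collecting duct array (2.72 to 3.13). Relative to the mesenchyme, 5 of 7 proximal tubule markers (list median 1.90), 4 of 11 stroma markers (1.10) and 3 of 13 ureteric markers (1.32) were higher in the interstitium and 4 of 7 progenitor markers (-3.27) lower. Their part, and that of the RNA ratio and brightness given above, in the values of Scube2, Scube3, Cdon, Stk36, Kif3a, Myocd, Ccnd1 and Ccnd2 was not tested. With title dates fitted none of these 8 was called against the mesenchyme, and the sign turned for Scube3 (0.92), Ccnd2 (-1.76) and Ccnd1 (-0.74). Interstitium and mesenchyme arrays share no title date, so the date fit links them only through other components. Relative to the mesenchyme, the co-receptor gene Cdon fell (-1.82, SE 0.49, adjusted p = 0.0102), though not without interstitium replicate 4 (-1.23, 0.115). Of the transduction genes 2 of 15 fell there, where 11.4% of all genes changed: Stk36, the fused kinase gene (-2.35, SE 0.53, adjusted p = 0.00275), and Kif3a (-1.22, adjusted p = 0.0478; -1.17, 0.308 with another probe set). Kif3a was not called without interstitium replicates 2 or 3 or any mesenchyme array (-1.23 to -0.80). No transduction gene of 15 was called between interstitium and collecting duct, where 4.48% of all genes were called. There Gpr161, a ciliary receptor that restrains the pathway, had 1.53 (adjusted p = 0.3).

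In the ureteric lineage Sall1 was higher in the collecting duct than in the bud, at 11.65 against 7.36 (difference 4.29, SE 0.67, limma adjusted p = 4.89e-05), and Ccnd1 was lower (-1.72, adjusted p = 0.0171), though not without collecting duct replicate 2 (-1.13) or bud replicate 3 (-1.60). Nephron progenitor marker means were 8.33 to 10.46 in the collecting duct and 7.37 to 8.37 in the bud. Of these 7 markers, which include Sall1, 2 were higher in the collecting duct (list median 1.53). Of 11 stroma markers 10 were higher there (list median 3.47). The part of both lists in the Sall1 and Ccnd1 values was not tested. None of the pathway list genes was called between collecting duct and tip, where 0.356% of all genes were. Nor was any called between corpuscle and S-shaped body with all arrays, where 0.579% of all genes were. Without the libraries labelled S-shaped body 3 and corpuscle 4, Bmp4 (-2.22, adjusted p = 0.0154), Ccnd1 (-1.45, 0.0246), Scube3 (-1.95, 0.00881), Scube2 (-2.72, 0.0166) and Gpr161 (-3.30, 0.00833) were called lower in the corpuscle, where 4.07% of all genes were called. Ccnd1 is on the renal vesicle marker list by which these libraries stood apart. Its values without them, here and for the proximal tubule below, are not independent of that choice. In the S-shaped body relative to the vesicle, Btrc rose (2.55, SE 0.56, adjusted p = 0.00485), but another Btrc probe set gave 0.08 (0.971) and the fit of only these arrays an adjusted p of 0.066, and Tulp3 fell (-1.59, adjusted p = 0.0188). Without the libraries labelled S-shaped body 3 and corpuscle 4, Btrc was 2.32 (adjusted p = 0.011) and Tulp3 was not called (-1.11, 0.13), while Scube2 was (2.17, 0.0424). Tulp3 was not called in the fit of only these arrays either (0.162). Tulp3 was not called without S-shaped body replicates 1 (-1.46) or 3 (-1.11). In the proximal tubule relative to the S-shaped body, Scube3 fell to 9.41 against 13.42 (difference -4.01, SE 0.54, adjusted p = 4.32e-06). There Gpr161 also fell (-3, adjusted p = 0.0157), Evc2, a ciliary transducer, rose (1.80, 0.0131), and Csnk1a1, a casein kinase gene (-1.10, 0.00252), and Ccnd1 (-1.74, 0.0344) fell. Of the 7 renal vesicle markers, which include Ccnd1, 4 were lower in the proximal tubule (list median -2.96). Their part in the Ccnd1 value was not tested. Without proximal tubule replicate 1, Gpr161 (-1.82) and Ccnd1 (-0.85) were not called, and without replicate 2 Evc2 (1.39) and Csnk1a1 (-0.89) were not; each of these fits leaves 1 proximal tubule array, and other components give the spread. Without the libraries labelled S-shaped body 3 and corpuscle 4, Scube3 was -4.29 (adjusted p = 1.98e-07), Gpr161 -3.47 (0.00456), Evc2 1.74 (0.0192) and Ccnd1 -2.33 (0.000259), and Scube2 was called too (-2.24, 0.0453). Over single arrays left out, Scube3 ran between -5.02 and -3. With title dates fitted, Gpr161 (-1.90, adjusted p = 0.553), Evc2 (2.39, 0.308), Csnk1a1 (-1, 0.161) and Ccnd1 (-1.73, 0.474) were not called. Leaving out the S-shaped body array of replicate 3 ended the Csnk1a1 call (-0.97), and leaving out 1, 2 or 4 that of Ccnd1 (-1.64 to -1.45).

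The genes whose signal followed each Hedgehog gene most closely over the 37 arrays were taken as a description. The points share components, and so repeat the differences between them. For Shh they were Scnn1g, a subunit of the epithelial sodium channel (Pearson r = 0.894), Cldn8, a tight junction claudin (0.889), and Wnt9b, a Wnt ligand of the ureteric stalk (0.865). For Gli1 they were Mrc2, a collagen receptor (0.779), Gata6, a GATA factor (0.719), and Reck, a protease inhibitor (0.679). For Ptch1 they were Pja2 (0.747), Tmtc4 (0.721) and Sesn3 (0.707). Gli2 was nearest to Arl15 (0.851), Ddit4 (0.83) and Zfp618 (0.807), and Gli3 to Bub1, a mitotic checkpoint kinase (0.852), Efcab11 (0.845) and Kbtbd6 (0.845). For Smo they were Wdr18 (0.694), Smarcb1, a chromatin remodelling subunit (0.693), and Nol12 (0.691), and for Sufu Snap47 (0.75), Snx12 (0.745) and Hif3a (0.726). The near-background genes followed Tmem9b (0.685), Tspan8 (0.658) and Ccdc184 (0.656) for Ihh, and Drp2 (0.738), Rnf157 (0.706) and Rab36 (0.678) for Hhip. Among the 9 themselves the highest coefficients were 0.674 for Gli2 with Gli3, 0.534 for Hhip with Sufu and 0.471 for Ptch1 with Gli1, while Shh had -0.103 with Ptch1 and -0.0985 with Gli1.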

How the data were processed

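RNA of laser-captured or dissected components of the embryonic mouse kidney was hybridised to Affymetrix mouse whole-genome arrays. The deposited values are linear signal intensities per probe set, computed by the authors with GCOS, per the submitters' processing notes (version not given in the sources used here), and their 2% trimmed mean was 1500 in each array. Detection calls were not used here. Of 45101 probe sets, 64 controls were removed, and 34945 named a single gene, 932 several and 9160 none in the platform annotation; 34741 of the first matched RefSeq.

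An offset of 34.62 (the 20th percentile) was added before log2, and arrays were quantile normalized. Probe sets above the pooled median in at least 2 arrays were kept, 35806 in all and 29068 with a single gene, and the one with the highest mean stood for its gene (15709 genes). limma 3.58.1 in R 4.3.3 (lmFit, eBayes with trend) fitted all 37 arrays with 1 mean per component (28 residual degrees of freedom), with Benjamini-Hochberg adjustment over all genes and two-sided tests. Calls needed an adjusted p below 0.05 and a log2 difference of at least 1. The contrast of gaps between ages was added after the data were seen. The script was checked on simulated data. The number of arrays limits precision.

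Groups came from the labels' tissue names. The 9 genes, the lists and the tests were chosen with earlier results of these data known. Named genes were the 9 members, the 3 genes nearest to each by correlation and, from each pathway list, up to 3 called genes with the largest change and 1 not called. Further called list genes were named after their values were seen. Alternatives covered scaling, offset, filter, probe set choice, array weights, arrays fitted, title date and number, dissection method and leaving out each array.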

Additional observations from a re-analysis of the deposited data

Results flagged for a closer look

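Smo in ureteric bud replicate 3, at 13.71, stood apart from the other 3 bud arrays, of which the nearest was 14.46. The gap was 0.842 of the range of the group, just past the critical value of the Dixon test for 4 samples. Sufu in bud replicate 2, at 11.98, stood apart in the same way, with the nearest array at 12.51 and a gap share of 0.92. These were 2 of 54 groups examined (the 9 genes in each component of 4 to 10 arrays), and chance alone marks about 1 in 20. Without bud replicate 3 the Smo difference between collecting duct and bud passed the test (-1.04, limma adjusted p = 0.0418).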

How the results depend on the processing

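Of 84 values, 16 kept their direction and their side of the threshold in every setting tried, and 1738 of 2049 recomputed values did. The number of the 9 Hedgehog genes called was 1 for bud against mesenchyme, and 3 with array weights, 2 with only the arrays compared, 0 with title dates fitted, 2 with the title number as a replicate block and 2 with mesenchyme arrays titled LCM only, with 1 to 2 when single arrays were left out. For vesicle against mesenchyme it was 2, and 1 with the most variable probe set, 4 with dissected or collagenase mesenchyme and 0 with LCM mesenchyme. For interstitium against mesenchyme it was 0, and 1 with median scaling, with only the arrays compared or without interstitium 1 and collecting duct 1, with 0 to 1 over single arrays left out. For proximal tubule against S-shaped body it was 0, and 1 without S-shaped body 3 and corpuscle 4, with 0 to 2 over single arrays. For collecting duct against tip it was 0, and 3 with array weights and 1 without interstitium 1 and collecting duct 1, with 0 to 1 over single arrays. For collecting duct against bud it was 1, and 6 with median scaling, 5 with array weights, 5 with only the arrays compared, 0 with title dates and 2 without interstitium 1 and collecting duct 1, with 0 to 2 over single arrays. For interstitium against collecting duct it was 1, and 2 with array weights and 2 without interstitium 1 and collecting duct 1, with 1 to 2 over single arrays. For interstitium against the other 5 components it was 2, and 1 with median scaling, the most variable probe set, only the arrays compared or the replicate block, 0 with title dates, and 0 to 4 over single arrays (4 without proximal tubule 2, 0 without interstitium 3 or 4). For the contrast between ages it was 0, and 1 (Smo, 1.68) with median scaling. The number of all genes called also changes between settings, so these counts are not a result about the Hedgehog genes. Of 15709 genes, median scaling called 4999 for collecting duct against bud (main fit 1586) and 3034 for interstitium against mesenchyme (1795). It called 819 for interstitium against the other 5 components (962) and 321 for the contrast between ages (218).

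Signs turned in 10 values. With title dates fitted, interstitium against mesenchyme gave -0.28 for Ptch1, 0.92 for Scube3, -1.76 for Ccnd2 and -0.74 for Ccnd1, and the contrast between ages gave -0.84 for Ptch1. Interstitium and mesenchyme arrays share no title date. With LCM mesenchyme, Gli1 was -0.09 in the interstitium and -0.49 in the contrast between ages, which ran between -0.21 (without collecting duct 2) and 0.82 (without collecting duct 1) over single arrays. With the most variable probe set, Tulp3 was -0.76 in vesicle against mesenchyme and 0.30 in S-shaped body against vesicle. The cause was not tested. Same-numbered arrays of different components did not deviate together as a set (99 pairs, median r = 0.00696). Of these pairs 10 had r above 0.1, as did 32 of 498 pairs with other numbers. The labels do not say what the title number means, and these correlations cannot tell whether some arrays were paired. With that number as a replicate block, Ptch1 in the interstitium against the other 5 components was 1.10 (adjusted p = 0.0689) and Gli1 in bud against mesenchyme -1.71 (adjusted p = 0.0264). Median scaling moved the all-gene median for collecting duct against bud to -0.85, against -0.19, with 4999 genes called against 1586. Depth is unknown, and values near the median of all signals, such as Hhip and Ihh, are limited by background.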
